A study of Homo sapiens with 21 samples.

Results

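Type I interferon response genes are the genes a cell switches on when it senses foreign or misplaced nucleic acid, or when interferon binds at its surface. A list of 45 of them, made of nucleic acid sensors, interferon transcription factors and interferon-stimulated genes, was followed in AU565, a line of human breast cancer cells in which ERBB2 is amplified. The list was set by gene name, and it was chosen with earlier results of these data known. The count table held 43 of the 45 among its 16553 genes, and OASL and IFI44L were not analysed here. CGAS, the cytosolic DNA sensor, was listed at 0 to 0.716 CPM (counts scaled for the depth of each library) and did not reach the filter on low counts, so 42 of the 45 were tested among 15969 genes. The filter asks for about 10 counts in the 3 libraries of a group, so a gene that is high in a single group could pass through that group alone.

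RNA was sequenced as 21 libraries in 7 groups of 3, from cells grown with or without trastuzumab, an antibody against HER2, the product of ERBB2. All groups carry the genotype label WT, and the sample labels name no added interferon and no other cell. Untreated monolayers were flat cultures without the antibody. Acutely exposed monolayers received 20 µg/ml for 24 h. Primed monolayers received 20 µg/ml for 24 h and were then kept for a further 96 h. Untreated aggregates were 3D cultures grown for 96 h in a liquid overlay with 5% matrigel. Primed aggregates came from cells exposed to 20 µg/ml for 24 h as a monolayer and then grown for 96 h as aggregates. Treated aggregates were grown for 96 h and then received 50 µg/ml for 24 h, and the primed and treated aggregates had both exposures. The treated groups were therefore also 24 h older as aggregates than the untreated and primed ones, so age and dose cannot be told apart there. No untreated monolayers kept for the further 96 h are among the 7 groups. In primed against untreated monolayers, priming and time in culture therefore cannot be told apart. Between untreated aggregates and untreated monolayers, culture form, matrigel and the 96 h of growth likewise differ together. Nothing in the labels says whether the replicates of a group were separate cultures. The p-values therefore reflect only how far these samples spread, and that spread may be technical.

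As background, double-stranded RNA is detected in the cytosol by RIG-I (RIGI) and MDA5 (IFIH1), and DNA by cGAS, which signals through STING (STING1). These sensors activate the transcription factors IRF3 and IRF7, which induce interferon. Interferon then acts through its receptor and the kinases JAK1 and TYK2 on the complex ISGF3, which includes STAT2 and IRF9 and binds the interferon-stimulated response element (ISRE). Another sequence, the gamma-activated site (GAS), is known from the promoters of interferon-induced genes such as IRF1. The proteins made in response block viral entry, translation or RNA, and many are also made at a low level in cells with no infection. In tumour cells the same genes are read as a sign of interferon signalling, and antibodies such as trastuzumab are known to engage immune cells, which the sample labels here do not name.

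Library totals were 15005070 to 26921113 counts. Of 9 luminal breast markers, ERBB2 was at 5770 to 10000 CPM over the libraries, the epithelial adhesion protein EPCAM at 120 to 292 and the keratin KRT8 at 1080 to 3880. GRB7, KRT18, KRT19 and ELF3 were at 246 CPM or more in every library. On the same list GATA3 was at 2.41 to 11.8 CPM and the cadherin CDH1 was low, at 0.0449 to 3.05. Among the leukocyte markers, CD68 was at 24 to 74.6 CPM, CD14 was at 0 to 0.583 and ITGAM at 0 to 3.77, and PTPRC and CD3E were not analysed here. Markers of other tissues split the libraries. A first set of 12 libraries holds the untreated and primed aggregates and the monolayers that were untreated or acutely exposed, and the other 9 hold the primed monolayers and both treated kinds of aggregate. The summed level of 7 melanocyte markers, 7 of 7 in the table, was 16.7 to 109 CPM in the 12 and 1.65 to 4.2 in the 9, where TYRP1 was at 0 to 0.256. The sum over 10 of 11 kidney markers ran the other way, at 0.561 to 1.55 CPM in the 12 and 9.67 to 43.9 in the 9, with the kidney protein UMOD at 0 to 0.0588 in the 12. MYH7, which encodes a myosin of heart muscle, reached 20.6 to 87.4 CPM in 6 libraries and stayed at 0.11 CPM or less in the other 15. Those 6 were untreated monolayers 1 and 2, acutely exposed monolayers 2 and 3, and untreated aggregates 1 and 2. Where a comparison crosses from the 12 libraries to the 9, the set and the treatment cannot be told apart. This holds for primed against untreated monolayers, for treated and for primed and treated against untreated aggregates, and for primed and treated against primed aggregates.

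Promoter sequences show how far the list shares its known control elements. RefSeq promoters of GRCh38.p14, from 250 bases before to 50 after each gene's start, were matched for 34 of the 45 genes, 33 of them tested. The core of the ISRE, searched on either strand as GAAA, any 2 bases and GAAA again, was found in 20 of the 33 (60.6%) and in 996 of 27305 promoters in all (3.65%). The GAS letters TTCNNNGAA, which read the same on both strands, were found in 9 of the 33 (27.3%) and in 7.88% of all promoters. The windows below were chosen because the results turn on these genes. They read 5′ to 3′ on the gene's strand, with capitals for the matched letters. OAS1, chr12:112906772-112906961 on the plus strand, held a GAS match and no ISRE core match in its window. Near its end that window holds GAAA, a single base and GAAA again, which the search for exactly 2 bases between them did not count. So the OAS1 window is not free of a sequence close to the core. Its neighbour OAS3, chr12:112938324-112938473 on the plus strand, held 2 ISRE core matches and no GAS match. IRF1, chr5:132490874-132490923 on the minus strand, held a GAS match alone.
OAS1: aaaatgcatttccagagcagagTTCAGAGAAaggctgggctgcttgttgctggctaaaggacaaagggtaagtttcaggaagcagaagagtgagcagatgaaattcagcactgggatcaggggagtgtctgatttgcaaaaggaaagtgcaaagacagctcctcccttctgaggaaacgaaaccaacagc
OAS3: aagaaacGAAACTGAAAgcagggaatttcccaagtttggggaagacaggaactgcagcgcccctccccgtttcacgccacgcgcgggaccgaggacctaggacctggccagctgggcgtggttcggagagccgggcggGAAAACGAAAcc
IRF1: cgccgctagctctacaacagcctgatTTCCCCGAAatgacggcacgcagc

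The following windows all hold the ISRE core. They come from genes that fell in at least 1 comparison with monolayers or that were higher in treated aggregates, and do not stand for all such genes. Of the genes higher in treated than in untreated aggregates, 3 of 9 with a promoter on file held the core. RIGI and STAT2, which fell in untreated aggregates against untreated monolayers, held no match. IFITM3 lies at chr11:320881-320940 and SAMD9 at chr7:93118090-93118139, both on the minus strand, as does IFI6 at chr1:27672268-27672357, whose window held 3 matches. ISG15 at chr1:1013357-1013411 held 2 matches that overlap, shown as a single run. IFIT1 at chr10:89392483-89392542 held its 2 matches on the opposite strand, and IFI27 at chr14:94110606-94110665 held 1 on each strand with a GAS match that overlaps both. These last 3 genes are on the plus strand. A match describes the letters in this window and is not evidence that a factor binds there.
IFITM3: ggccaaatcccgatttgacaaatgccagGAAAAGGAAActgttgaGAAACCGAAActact
IFI6: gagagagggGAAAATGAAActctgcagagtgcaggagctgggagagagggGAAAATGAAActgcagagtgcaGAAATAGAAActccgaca
SAMD9: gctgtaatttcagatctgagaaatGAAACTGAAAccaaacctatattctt
ISG15: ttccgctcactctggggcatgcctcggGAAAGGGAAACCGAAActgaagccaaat
IFIT1: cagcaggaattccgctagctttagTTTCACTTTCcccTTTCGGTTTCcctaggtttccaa
IFI27: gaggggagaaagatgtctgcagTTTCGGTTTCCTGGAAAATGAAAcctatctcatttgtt

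The 42 genes did not move as a block. Within single groups some rose and others fell, and the heat map of all libraries shows that neighbours in a family, such as OAS1 and OAS3 or IFIT1 and IFIT2, had different patterns over the 7 groups. Below, levels are CPM and are compared only for the same gene between groups. A change is given as a log2 fold change beside its standard error (SE), and a gene is called where the Benjamini-Hochberg adjusted p of edgeR's quasi-likelihood test over all 15969 genes was under 0.05.

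**Figure D1:**
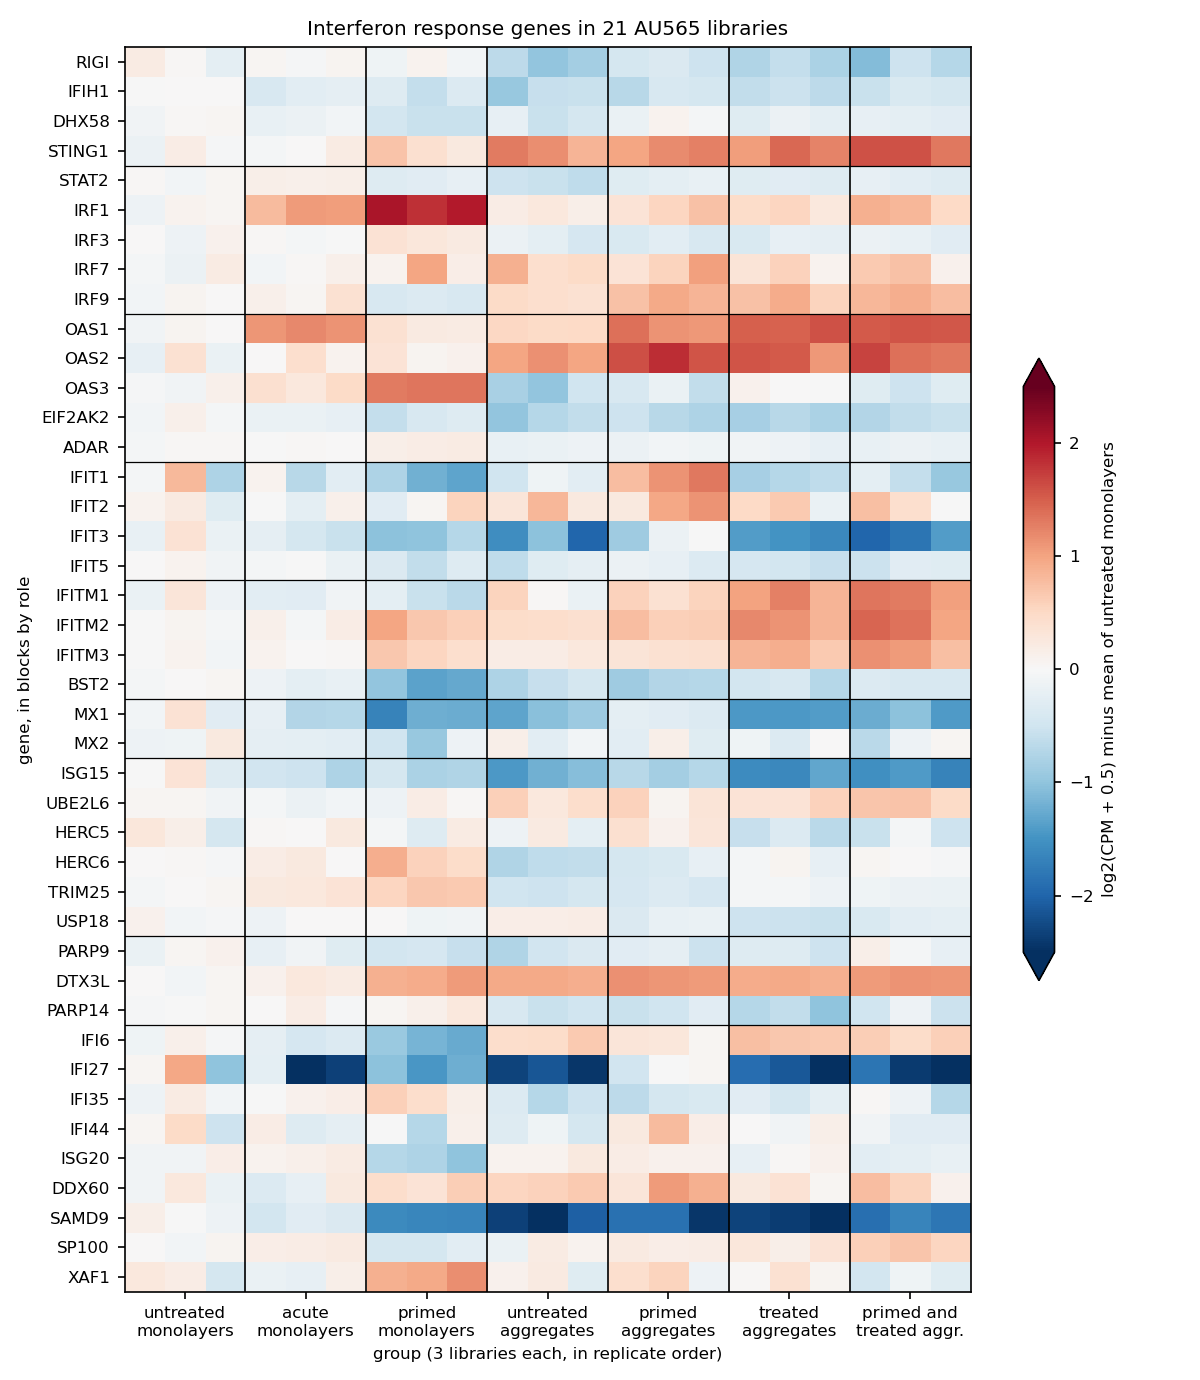
Heat map of the 42 tested genes (rows, in blocks by role) in the 21 libraries (columns, by group), coloured by log2(CPM + 0.5) minus the mean of the untreated monolayers; colours end at 2.5 each way. OAS1 is red in the acutely exposed monolayers and in all groups of treated or primed aggregates, while SAMD9 is blue in all groups of aggregates and in primed monolayers.

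Among the sensors, the RNA sensors were lower and STING1 was higher in untreated aggregates than in untreated monolayers. In primed and treated aggregates against primed monolayers 2 of the 4 sensors were higher and 1 was lower, beside 63.9% of all genes called. IFIH1, which encodes MDA5, was at 52.7, 53.4 and 53.2 CPM in untreated monolayers, at 40, 44.1 and 45.4 in acutely exposed monolayers and at 27.3, 35.3 and 35.7 in untreated aggregates. Each of the 3 groups was separate from the others. IFIH1 fell by 0.30 on the log2 scale with acute exposure (SE 0.08, edgeR adjusted p = 0.00965, or 0.056 without replicate 1 of the exposed monolayers) and by 0.70 from monolayers to aggregates (SE 0.09, edgeR adjusted p = 1.92e-08). RIGI, the sensor of short double-stranded RNA, was at 11.1, 9.75 and 7.9 CPM in untreated monolayers and at 5.88, 4.54 and 5.05 in untreated aggregates, with no overlap. That difference was -0.89 (SE 0.15, edgeR adjusted p = 2.5e-06). Primed aggregates had RIGI at 6.87, 7.33 and 6.44 CPM, above the untreated aggregates by 0.42 (SE 0.15, edgeR adjusted p = 0.0494), a call that was lost on leaving out any of 5 of the 6 libraries. DHX58, which encodes LGP2, a regulator of both RNA sensors, fell by 0.41 in untreated aggregates (SE 0.10, edgeR adjusted p = 0.000923) and by 0.55 in primed monolayers (SE 0.11, edgeR adjusted p = 3.73e-05), and was higher by 0.37 in primed than in untreated aggregates (SE 0.11, edgeR adjusted p = 0.0122). This last call was lost without replicate 2 of the untreated (adjusted p = 0.11) or of the primed aggregates (adjusted p = 0.0898).

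STING1, the adaptor of DNA sensing, was at 4.66, 5.93 and 5.04 CPM in untreated monolayers, at 13.4, 12.2 and 9.69 in untreated aggregates and at 16.6, 16.6 and 13.7 in primed and treated aggregates. All 3 libraries of the last group lay above all 3 untreated aggregates, which lay above all 3 monolayers. The rise from monolayers to aggregates was 1.16 (SE 0.15, edgeR adjusted p = 1.36e-08), and primed and treated aggregates exceeded untreated aggregates by 0.41 (SE 0.13, edgeR adjusted p = 0.013). That last call was lost on leaving out replicate 3 of the untreated aggregates (0.28, adjusted p = 0.111) or replicate 1 or 2 of the primed and treated ones (adjusted p = 0.0588 and 0.0633). Acute exposure of monolayers moved STING1 by 0.06 (95% interval -0.26 to 0.38), which was not called. CGAS, its upstream sensor, was listed at 0 in 12 of 21 libraries.

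The transcription factors split, and IRF1 had the largest rise of the 42 genes in primed monolayers. IRF1, an activator that works without ISGF3, was at 12.5, 14.6 and 14.2 CPM in untreated monolayers, at 24.3, 29.2 and 28.8 after acute exposure and at 58.2, 50.3 and 55.8 in primed monolayers. The 3 groups did not overlap, and the primed monolayers were the highest. IRF1 rose by 0.99 with acute exposure (SE 0.11, edgeR adjusted p = 1.59e-08) and by 1.98 in primed monolayers (SE 0.10, edgeR adjusted p = 6.32e-17). In aggregates it was at 15.7, 16.7 and 15.2 CPM untreated and at 25.9, 24.9 and 19.7 primed and treated. That rise was 0.56 (SE 0.11, edgeR adjusted p = 0.000124), with no overlap.

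The ISGF3 subunits STAT2 and IRF9 went opposite ways between untreated monolayers and untreated aggregates. STAT2 was at 91.9, 86.6 and 93 CPM in untreated monolayers, at 63.1, 61.1 and 57.9 in untreated aggregates and at 72.9, 76.3 and 79.8 in primed aggregates. The untreated aggregates were lowest and no groups overlapped. STAT2 fell by 0.58 from monolayers to aggregates (SE 0.05, edgeR adjusted p = 3.01e-11) and was higher in primed than in untreated aggregates by 0.33 (SE 0.06, edgeR adjusted p = 3.56e-05). IRF9, the DNA-binding subunit, was at 20, 21.9 and 21.1 CPM in untreated monolayers, at 29.5, 28.4 and 27.3 in untreated aggregates and at 35.3, 41.2 and 38.1 in primed aggregates. Here the primed aggregates were highest, again with no overlap. IRF9 rose by 0.43 in both steps (SE 0.09 each, edgeR adjusted p = 7.63e-05 and 0.000384), and fell by 0.40 in primed monolayers (SE 0.10, edgeR adjusted p = 0.000505).

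Of the factors that induce interferon itself, IRF3 was higher by 0.28 in primed monolayers (SE 0.07, edgeR adjusted p = 0.00038) and lower by 0.27 in untreated aggregates (difference -0.27, SE 0.07, edgeR adjusted p = 0.000798), each against untreated monolayers. IRF7 was near the detection limit, at 0.955, 0.858 and 1.25 CPM in untreated monolayers and 2.29, 1.53 and 1.61 in untreated aggregates. The groups did not overlap and the rise was 0.82 (SE 0.32, edgeR adjusted p = 0.0249), but the call was lost on leaving out any of 3 of the 6 libraries.

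The OAS enzymes make the second messenger that activates the ribonuclease RNase L, and their 3 tested genes lie in a row on chromosome 12, OAS1 at 112906962 to 112933219, OAS3 at 112938474 to 112973251 and OAS2 at 112978519 to 113011723 (GRCh38.p14), with 5254 and 5267 bases between them. In spite of this order they differed. OAS1 was at 22, 24.5 and 23.5 CPM in untreated monolayers, at 51, 54.3 and 51.5 after acute exposure and at 30.5, 27.5 and 26.9 in primed monolayers. Acute exposure gave the highest OAS1 of the monolayers, and 96 h later the level lay between the others with no overlap. The acute rise of 1.16 (SE 0.07, edgeR adjusted p = 1.05e-14) compares with 0.27 in primed monolayers (SE 0.08, edgeR adjusted p = 0.00203).

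In aggregates OAS1 was at 33.7, 32.9 and 33 CPM untreated, at 61, 51.4 and 50.2 primed, at 66.9, 66 and 71 treated and at 68.7, 70.2 and 69.4 primed and treated. Every library of an exposed group lay above every untreated one, and the treated groups lay above the primed group. Against untreated aggregates the rises were 0.70 when primed (SE 0.07, edgeR adjusted p = 3.03e-09), 1.03 when treated (SE 0.07, edgeR adjusted p = 6.8e-14) and 1.06 when primed and treated (SE 0.07, edgeR adjusted p = 2.94e-14). Primed and treated aggregates differed from treated ones by 0.03 (95% interval -0.10 to 0.16), with overlap.

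OAS3 had another order. It was at 26.6, 25.3 and 29.5 CPM in untreated monolayers, at 35.9, 32.6 and 37.7 after acute exposure and at 67.6, 69.3 and 69.4 in primed monolayers, with no overlap and the primed monolayers highest. It rose by 0.39 with acute exposure (SE 0.10, edgeR adjusted p = 0.00355) and by 1.34 in primed monolayers (SE 0.09, edgeR adjusted p = 8.35e-14). In untreated aggregates it was lower, at 15.3, 13.4 and 19 CPM, and in treated aggregates it was at 29.4, 27.3 and 26.8. Treated aggregates exceeded untreated ones in OAS3 by 0.81 (SE 0.10, edgeR adjusted p = 2.51e-07), with no overlap. After priming and treatment it was at 21.8, 18.7 and 21.9 CPM, below all 3 treated aggregates by 0.42 (difference -0.42, SE 0.10, edgeR adjusted p = 0.00534), and without replicate 2 of the primed and treated aggregates the adjusted p was 0.0604.

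OAS2 was at 2.53, 4.02 and 2.59 CPM in untreated monolayers, at 6.41, 7.2 and 6.36 in untreated aggregates and at 10.1, 12.1 and 9.83 in primed aggregates, each group above the last. The rises were 1.105 from monolayers to aggregates (SE 0.18, edgeR adjusted p = 2.33e-06) and 0.67 with priming (SE 0.16, edgeR adjusted p = 0.00235). EIF2AK2 encodes PKR, the kinase that stops translation on double-stranded RNA. It was at 70.4, 81 and 71.6 CPM in untreated monolayers and at 37.3, 45.3 and 48.2 in untreated aggregates, a fall of 0.77 without overlap (difference -0.77, SE 0.08, edgeR adjusted p = 6.28e-10). ADAR, which edits double-stranded RNA and so limits sensing, moved little, by -0.16 in untreated aggregates (SE 0.05, edgeR adjusted p = 0.00233) and by 0.18 in primed monolayers (SE 0.05, edgeR adjusted p = 0.000721).

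**Figure D2:**
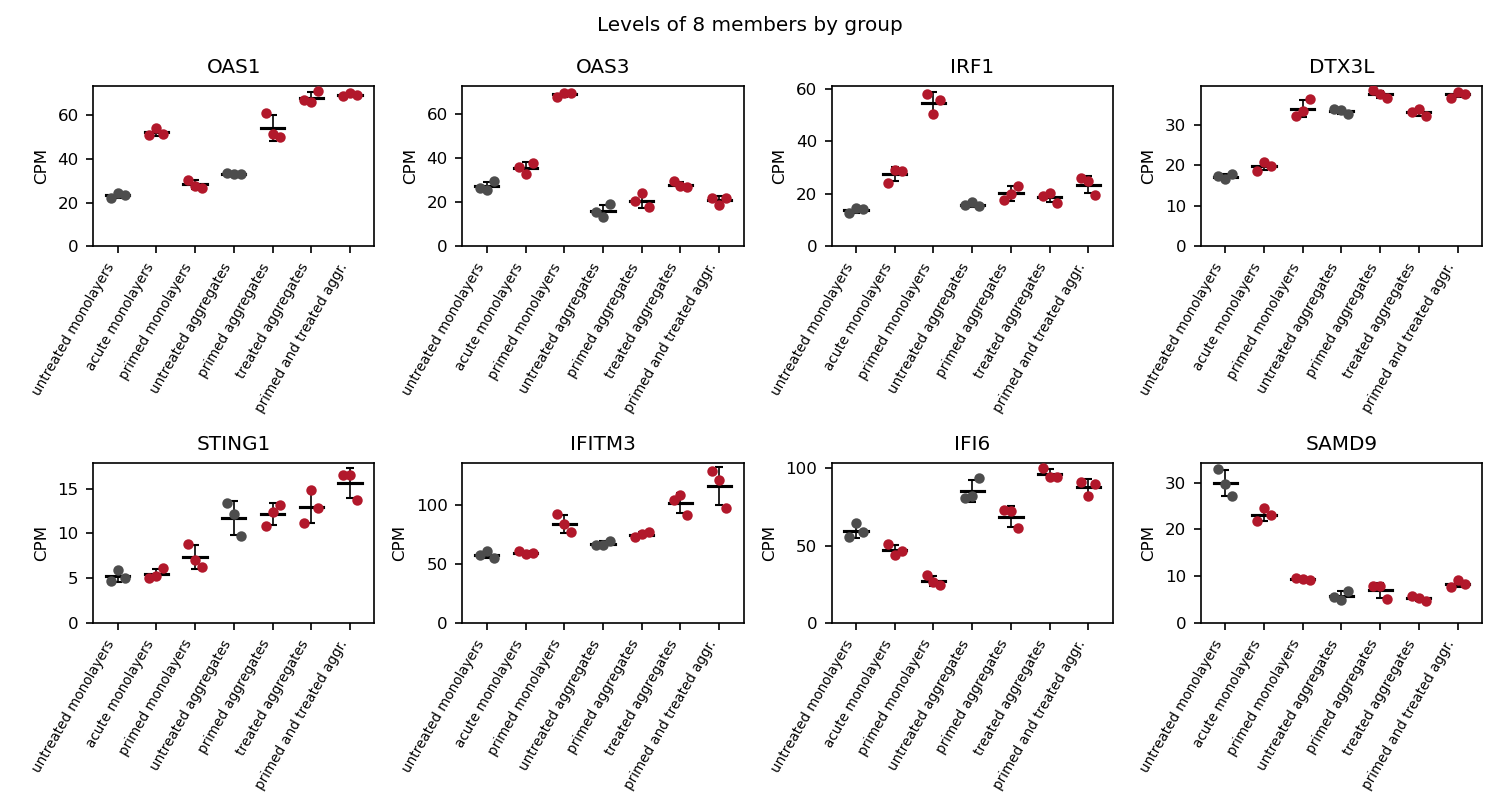
Levels of 8 genes in CPM (each vertical axis from 0) in the 7 groups; points are libraries, grey for groups without trastuzumab and red for groups with it, and bars give the mean and SD of 3 libraries. OAS1 is at 51 to 54.3 CPM in acutely exposed monolayers against 22 to 24.5 untreated, while OAS3 and IRF1 peak in primed monolayers.

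The IFIT proteins bind viral RNA and block its translation, and IFIT1 and IFIT3 were at low levels. IFIT1 was at 0.94, 1.38 and 1.19 CPM in untreated aggregates, at 2.96, 3.91 and 4.58 in primed aggregates and at 1.21, 0.84 and 0.552 in primed and treated aggregates. The primed aggregates stood above both other groups without overlap. Their difference from untreated aggregates was 1.70 (SE 0.36, edgeR adjusted p = 0.000824), and primed and treated aggregates were lower than primed ones by 2.16 (difference -2.16, SE 0.36, edgeR adjusted p = 2.9e-05). IFIT3 followed in the same groups with 0.411, 0.817 and 0.178 CPM, then 0.947, 1.93 and 2.15, then 0.18, 0.252 and 0.515. It too was highest in the primed aggregates. The difference was 1.80 with priming (SE 0.40, edgeR adjusted p = 0.00115) and -2.36 for primed and treated against primed aggregates (SE 0.40, edgeR adjusted p = 2.67e-05).

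Against untreated monolayers, where IFIT3 was at 1.85, 2.93 and 1.9 CPM, untreated aggregates were lower by 2.21 (difference -2.21, SE 0.38, edgeR adjusted p = 6.04e-06). IFIT1 in untreated monolayers ranged from 0.693 to 3.08 CPM, and its fall of 1.95 in primed monolayers (difference -1.95, SE 0.46, edgeR adjusted p = 0.000478) was -0.60 with an edgeR adjusted p of 0.395 without the 6 libraries that carry MYH7. IFIT5 fell by 0.39 in untreated aggregates and by 0.45 in primed monolayers (SE 0.10 and 0.11, edgeR adjusted p = 0.00142 and 0.000395). IFIT2, at 1.34 to 4.44 CPM over the libraries, had an edgeR adjusted p of 0.102 or more in the 9 comparisons of groups and an unadjusted p under 0.05 in 0 of the 9, and DESeq2 called it in 0. Other settings did call it. Without replicate 1 of the primed aggregates it was at -0.74 in primed and treated against primed aggregates (edgeR adjusted p = 0.041). With the melanocyte level as a covariate it was at 1.36 in untreated aggregates against untreated monolayers (edgeR adjusted p = 0.0396).

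The IFITM proteins sit in cell membranes and block viral fusion. Their 3 genes lie side by side on chromosome 11 and are close in sequence, so shared reads could have been split between them and each value is uncertain to that degree. By group mean all 3 were highest in the 2 treated kinds of aggregate. IFITM1 was at 3.35, 2.2 and 1.84 CPM in untreated aggregates, at 4.77, 5.82 and 4.23 in treated aggregates and at 6.19, 6.01 and 4.82 in primed and treated aggregates. Both treated groups lay above the untreated one, by 1.004 (SE 0.21, edgeR adjusted p = 0.000206) and by 1.20 (SE 0.20, edgeR adjusted p = 1.62e-05). IFITM3 was at 66.2, 66 and 69.6 CPM, then 105, 109 and 92, then 129, 122 and 97.8 in the same groups, with rises of 0.60 and 0.79 (SE 0.08 each, edgeR adjusted p = 6.78e-07 and 6.96e-09). IFITM2 rose by 0.64 and 0.85 (SE 0.11 each, edgeR adjusted p = 9.88e-05 and 2.6e-06). Priming alone moved IFITM3 by 0.16 (SE 0.08, edgeR adjusted p = 0.168), which was not called.

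In primed monolayers IFITM2 and IFITM3 were higher by 0.77 and 0.54 (SE 0.12 and 0.08, edgeR adjusted p = 5.57e-06 and 1.18e-06) and IFITM1 was lower by 0.67 (difference -0.67, SE 0.25, edgeR adjusted p = 0.0203). The IFITM1 call was lost without replicate 2 of the untreated monolayers (-0.45, adjusted p = 0.168), without replicate 2 or 3 of the primed monolayers (adjusted p = 0.0634 and 0.0931) and without the 6 libraries that carry MYH7 (-0.47, adjusted p = 0.246). BST2 encodes tetherin, which holds budding virus at the membrane. It was at 39.5, 41.1 and 42.2 CPM in untreated monolayers, at 20.5, 15.8 and 16.6 in primed monolayers and at 23.9, 27.4 and 30 in untreated aggregates. The primed monolayers were lowest, with falls of 1.22 (difference -1.22, SE 0.09, edgeR adjusted p = 1.34e-13) and, in aggregates, of 0.60 (difference -0.60, SE 0.09, edgeR adjusted p = 2.88e-07).

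MX1, a GTPase that traps viral nucleocapsids, was at 8.54, 11.7 and 7.3 CPM in untreated monolayers, at 2.47, 3.58 and 3.54 in primed monolayers and at 3.29, 4.08 and 4.58 in untreated aggregates. The untreated monolayers stood above both. The falls were 1.52 (difference -1.52, SE 0.19, edgeR adjusted p = 1.17e-08) and 1.21 (difference -1.21, SE 0.18, edgeR adjusted p = 3.61e-07). Primed aggregates had MX1 at 7.58, 7.33 and 7.02 CPM, above all untreated aggregates by 0.87 (SE 0.18, edgeR adjusted p = 0.000664). Acutely exposed monolayers, at 7.74, 5.21 and 5.31 CPM, overlapped the untreated ones, and the call of their fall of 0.61 (difference -0.61, SE 0.17, edgeR adjusted p = 0.00736) was lost without replicate 2 of the untreated monolayers (-0.39, adjusted p = 0.155) or replicate 2 or 3 of the exposed ones (adjusted p = 0.0621 and 0.0604), and the difference became 0.085 with adjusted p = 0.916 without the 6 libraries that carry MYH7. Its relative MX2 was at 0.0639 to 0.786 CPM, with an edgeR adjusted p of 0.0763 or more in the 9 comparisons of groups and an unadjusted p under 0.05 in 0 of the 9, and DESeq2 called it in 0. Without replicate 3 of the primed monolayers it was called as lower in primed than in untreated monolayers (-1.82, edgeR adjusted p = 0.0196).

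ISG15 is a ubiquitin-like protein that is attached to others by UBE2L6 with HERC5 or TRIM25 and removed by USP18. It was at 6.57, 8.54 and 5.18 CPM in untreated monolayers, at 4.61, 4.45 and 3.66 after acute exposure and at 2.12, 2.6 and 2.91 in untreated aggregates, each group below the last. ISG15 fell by 0.68 with acute exposure (SE 0.18, edgeR adjusted p = 0.00435) and differed by -1.42 between untreated aggregates and monolayers (SE 0.19, edgeR adjusted p = 6.52e-08). The acute fall had an adjusted p of 0.0961 without replicate 2 of the untreated monolayers. Primed aggregates, at 3.91, 3.47 and 3.87 CPM, exceeded untreated ones by 0.56 (SE 0.20, edgeR adjusted p = 0.0478), a call lost on leaving out any of 5 of the 6 libraries and, with the replicate number as a block, at adjusted p = 0.0519.

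The enzymes of ISG15 did not follow it throughout, though TRIM25 also fell in untreated aggregates. TRIM25, also a ligase for RIG-I, was at 103, 107 and 111 CPM in untreated monolayers, at 126, 128 and 135 after acute exposure, at 156, 172 and 169 in primed monolayers and at 75.6, 74.1 and 78.6 in untreated aggregates. All 4 groups were separate. TRIM25 rose by 0.28 with acute exposure (SE 0.05, edgeR adjusted p = 8.87e-05) and by 0.63 in primed monolayers (SE 0.05, edgeR adjusted p = 6.48e-13), and fell by 0.49 in untreated aggregates (SE 0.05, edgeR adjusted p = 5.29e-10). USP18, which also blocks the interferon receptor, was at 30, 29.8 and 30.1 CPM in untreated aggregates, at 20.4, 23.3 and 23.6 in primed ones and at 18.4, 18.2 and 17.9 in treated ones. The untreated aggregates were highest and the treated ones lowest. Against untreated aggregates USP18 fell by 0.42 in primed ones (SE 0.08, edgeR adjusted p = 0.000126), by 0.72 in treated aggregates (SE 0.08, edgeR adjusted p = 3.15e-09) and by 0.47 in primed and treated ones (SE 0.07, edgeR adjusted p = 6.51e-06).

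HERC6, a relative of HERC5, rose by 0.66 in treated and by 0.73 in primed and treated aggregates (SE 0.13 each, edgeR adjusted p = 0.000143 and 3.3e-05), each against untreated aggregates. UBE2L6 was higher by 0.45 in untreated aggregates than in untreated monolayers (SE 0.12, edgeR adjusted p = 0.00127). HERC5 lay between 0.0427 and 0.651 CPM, and its call of -1.73 in treated against untreated aggregates (SE 0.68, edgeR adjusted p = 0.0454) was lost with DESeq2 at adjusted p = 0.0644 and on leaving out any of 4 of the 6 libraries, with edgeR adjusted p up to 0.224 without replicate 2 of the untreated aggregates.

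DTX3L and PARP9 form a complex that modifies histones, and PARP14 is a relative of PARP9. DTX3L, the ubiquitin ligase of the complex, was at 17.3, 16.5 and 17.9 CPM in untreated monolayers, at 18.7, 20.7 and 19.8 after acute exposure, at 32.3, 33.4 and 36.4 in primed monolayers and at 33.8, 33.7 and 32.6 in untreated aggregates. The last 2 groups overlapped each other and lay far above the untreated monolayers. The rises were 0.98 in primed monolayers (SE 0.07, edgeR adjusted p = 3.22e-14) and 0.95 in untreated aggregates (SE 0.07, edgeR adjusted p = 4.88e-14), and 0.20 with acute exposure (SE 0.07, edgeR adjusted p = 0.0451), which was lost with a replicate block at adjusted p = 0.0512 and on leaving out any of 4 of the 6 libraries, with adjusted p up to 0.186. PARP9 fell by 0.53 and by 0.57 in the first 2 of these comparisons (SE 0.14 each, edgeR adjusted p = 0.00158 and 0.000595). The 2 genes run head to head on chromosome 3 and their spans share 447 bases, and whether the counting used strand is not given in the sources used here, so reads from the shared stretch cannot be told apart. PARP14 fell by 0.51 in untreated aggregates (SE 0.12, edgeR adjusted p = 0.000565).

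Among the other induced genes, SAMD9, which limits poxviruses and translation, had the widest fall in aggregates of the genes above 5 CPM in every library of 1 group. It was at 32.9, 29.7 and 27.2 CPM in untreated monolayers, at 21.7, 24.6 and 23.1 after acute exposure, at 9.59, 9.32 and 9.23 in primed monolayers and at 5.52, 4.9 and 6.9 in untreated aggregates. No group overlapped another. SAMD9 fell by 0.37 with acute exposure (SE 0.11, edgeR adjusted p = 0.0121), by 1.67 in primed monolayers (SE 0.12, edgeR adjusted p = 4.11e-14) and by 2.38 in untreated aggregates (SE 0.13, edgeR adjusted p = 1.17e-17). The acute fall was lost on leaving out any of 2 of the 6 libraries, with adjusted p up to 0.0892.

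IFI6, a membrane protein that limits cell death and viral replication, was at 55.3, 64.6 and 58.5 CPM in untreated monolayers, at 50.8, 44.1 and 46.6 after acute exposure, at 30.8, 26.2 and 24.5 in primed monolayers and at 80.6, 82.3 and 93.7 in untreated aggregates. No group overlapped another, with primed monolayers lowest and aggregates highest. IFI6 fell by 0.34 (SE 0.08, edgeR adjusted p = 0.00192) and by 1.14 (SE 0.09, edgeR adjusted p = 4.99e-13) in the exposed monolayers, and was higher by 0.52 in untreated aggregates (SE 0.08, edgeR adjusted p = 5.57e-07). Primed aggregates, at 73, 72.1 and 61.3 CPM, were below untreated ones by 0.32 (difference -0.32, SE 0.08, edgeR adjusted p = 0.00307).

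IFI27, a mitochondrial protein gene that is among the most inducible by interferon, varied most among replicates. It was at 3.59, 7.25 and 1.48 CPM in untreated monolayers, at 2.86, 0.142 and 0.288 after acute exposure, at 0.294, 0.408 and 0.238 in untreated aggregates and at 2.37, 3.47 and 3.63 in primed aggregates. Both aggregate groups were tight and separate, while the acutely exposed monolayers overlapped the untreated ones. The difference was -3.69 between untreated aggregates and monolayers (SE 0.90, edgeR adjusted p = 0.0022), 3.295 with priming in aggregates (SE 0.93, edgeR adjusted p = 0.0207) and -2.02 with acute exposure (SE 0.73, edgeR adjusted p = 0.0644), the last not called. The call with priming was lost on leaving out any of 5 of the 6 libraries, with adjusted p up to 0.0662.

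SP100, a nuclear body protein, was at 25.3, 33.1 and 30.4 CPM in untreated aggregates, at 34.8, 31.9 and 36.6 in treated ones and at 43.2, 46.7 and 41.9 in primed and treated ones. The last group stood above both others, by 0.57 (SE 0.08, edgeR adjusted p = 6.21e-07) and by 0.35 (SE 0.08, edgeR adjusted p = 0.00217). ISG20, an exonuclease, was at 42.4, 42.7 and 50.9 CPM in untreated monolayers and at 27.3, 26.1 and 22.3 in primed monolayers, a fall of 0.85 without overlap (difference -0.85, SE 0.08, edgeR adjusted p = 8.72e-11). XAF1, a promoter of apoptosis, rose from 0.842, 0.78 and 0.324 CPM to 1.58, 1.66 and 2.02 in the same groups, by 1.43 (SE 0.36, edgeR adjusted p = 0.00088). DDX60, a helper of RIG-I, was higher by 0.61 (SE 0.20, edgeR adjusted p = 0.00729) in untreated aggregates than in untreated monolayers, and IFI35 was lower by 0.58 (difference -0.58, SE 0.17, edgeR adjusted p = 0.0028). IFI44 stayed at 0.0639 to 1.1 CPM and was called in 1 comparison, primed and treated against primed aggregates (-1.34, SE 0.52, edgeR adjusted p = 0.0477), and not with DESeq2, where the adjusted p was 0.0736.

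After acute exposure of monolayers to trastuzumab, OAS1, IRF1, OAS3, TRIM25 and DTX3L were higher and ISG15, MX1, SAMD9, IFI6 and IFIH1 lower than in untreated monolayers. These 10 of 42 genes (23.8%), 5 higher and 5 lower, compare with 20.2% of all genes called (11.3% higher and 8.91% lower), a share near the background. The median change of the 42 was -0.03, against -0.02 over all genes. Leaving out the 6 libraries that carry MYH7 leaves 1 untreated and 1 exposed monolayer, assumed to vary like the other groups. OAS1 and IRF1 were then still called. The other 8 were not, with differences of -0.41 for IFIH1, -0.32 for SAMD9, 0.28 for OAS3, -0.20 for IFI6, 0.18 for TRIM25, -0.17 for ISG15, 0.07 for DTX3L and 0.085 for MX1. The sum of the melanocyte markers was 49.6 to 109 CPM in the untreated and 35.5 to 92.6 in the exposed monolayers.

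Primed monolayers against untreated ones had 32 of 42 called, with 14 higher and 18 lower, against 65.3% of all genes (33.7% higher and 31.6% lower), and a median of -0.10 against 0.01. Priming and the longer time in culture cannot be told apart here. IRF1, XAF1, OAS3, DTX3L, IFITM2, HERC6, TRIM25 and IFITM3 led the higher genes, and IFIT1, IFI27, SAMD9, MX1, IFIT3, BST2, IFI6 and ISG20 the lower ones. Of the OAS, PKR and ADAR group 3 of 5 rose and 1 fell, while of the IFIT family 3 of 4 fell and none rose. IFI27, at 1.44, 0.958 and 1.2 CPM here, was lower by 1.80 (difference -1.80, SE 0.74, edgeR adjusted p = 0.0452) and was not called with DESeq2, where the adjusted p was 0.0556. Its call was also lost on leaving out any of 5 of the 6 libraries. The difference was -1.06 (edgeR adjusted p = 0.259) without replicate 2 of the untreated monolayers and -0.31 (edgeR adjusted p = 0.631) without the 6 libraries that carry MYH7. The kidney markers summed to 11.3 to 31.7 CPM in the primed and 0.73 to 1.11 in the untreated monolayers. The sum over 4 of 6 endothelial markers was 59.1 to 67.4 and 9.48 to 10.4. Most of it was CDH5, at a mean of 58.1 CPM in the primed and 7.21 in the untreated monolayers. VWF was also higher, at 4.55 against 0.965, while PECAM1 (0.329 against 1.3) and KDR (0.151 against 0.326) were lower. The part of the kidney and endothelial markers in these differences was not tested.

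In untreated aggregates more of these genes were lower than higher. Against untreated monolayers 20 of 42 fell and 12 rose, beside 64.1% of all genes called (31.1% lower and 32.9% higher), with a median of -0.21 against 0.01 over all genes. SAMD9, IFIT3, IFI27, ISG15, MX1, RIGI, OAS3 and EIF2AK2 led the falls, and STING1, OAS2, DTX3L, IRF7, DDX60, IFI6, OAS1 and UBE2L6 the rises. Of the sensors 3 of 4 fell, and of the ISG15 group 3 of 6 fell and 2 rose. Summed melanocyte markers were 49.6 to 109 CPM in the untreated monolayers and 16.7 to 23.3 in the untreated aggregates. With the marker level as a covariate, a setting chosen after seeing the data, 7 genes were higher and 9 lower. IFIT3 was then at -0.95 (edgeR adjusted p = 0.226), ISG15 at -0.70 (edgeR adjusted p = 0.106), MX1 at -0.45 (edgeR adjusted p = 0.251) and IFI27 at 0.22 (edgeR adjusted p = 0.885), while SAMD9, RIGI, OAS3 and EIF2AK2 were called as lower.

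Aggregates formed from primed cells had more of these genes raised. Against untreated aggregates 13 rose (IFI27, IFIT3, IFIT1, MX1, OAS1, OAS2, ISG15, IRF9, RIGI, OAS3, DHX58, IRF1 and STAT2) and USP18 and IFI6 fell. These 15 of 42 (35.7%) compare with 21.2% of all genes called (11.5% higher and 9.66% lower), and the median was 0.22 against 0.00. Without replicate 2 of the primed aggregates 9 were called. The call of IRF1 was lost on leaving out any of 4 of the 6 libraries (0.23 with adjusted p = 0.196 without replicate 3 of the primed aggregates), and that of OAS3 without replicate 2 of either group (adjusted p = 0.117 and 0.128). The 7 melanocyte markers moved with this comparison, from 16.7, 23.3 and 17.7 CPM in the untreated to 54.5, 65.8 and 93.2 in the primed aggregates. IFI27, IFIT1 and IFIT3 were highest in the same library as the marker sum in 4 of 4 groups that carry the markers, which held for 3 of the 42 genes. They were lowest in the library with the lowest sum in 2, 3 and 2 of the 4 groups, respectively, and HERC6 in 4 of 4. When the marker level entered the fit of those 12 libraries as a covariate, OAS1 alone was called, at 0.77 (SE 0.14, edgeR adjusted p = 0.00648). In that fit the priming difference was -0.13 for IFI27 (SE 0.99), 0.02 for IFIT1 (SE 0.60) and 0.63 for IFIT3 (SE 0.59). MX1 was at 0.18, ISG15 at -0.10, OAS2 at 0.34 and IRF1 at 0.29. About as large as without the covariate, or larger, but not called were OAS3 at 0.69 (SE 0.20) and IRF9 at 0.53 (SE 0.16). The same held for DHX58 at 0.48 (SE 0.21), RIGI at 0.41 (SE 0.26) and STAT2 at 0.34 (SE 0.11). Among the falls it held for USP18 at -0.37 (SE 0.16) and IFI6 at -0.36 (SE 0.15). The slope on the marker level was itself called for 20 of 15240 genes and for none of the 42 by edgeR, of which IFI27 came nearest, at 1.88 per log2 unit of the marker sum (edgeR adjusted p = 0.064).

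**Figure D3:**
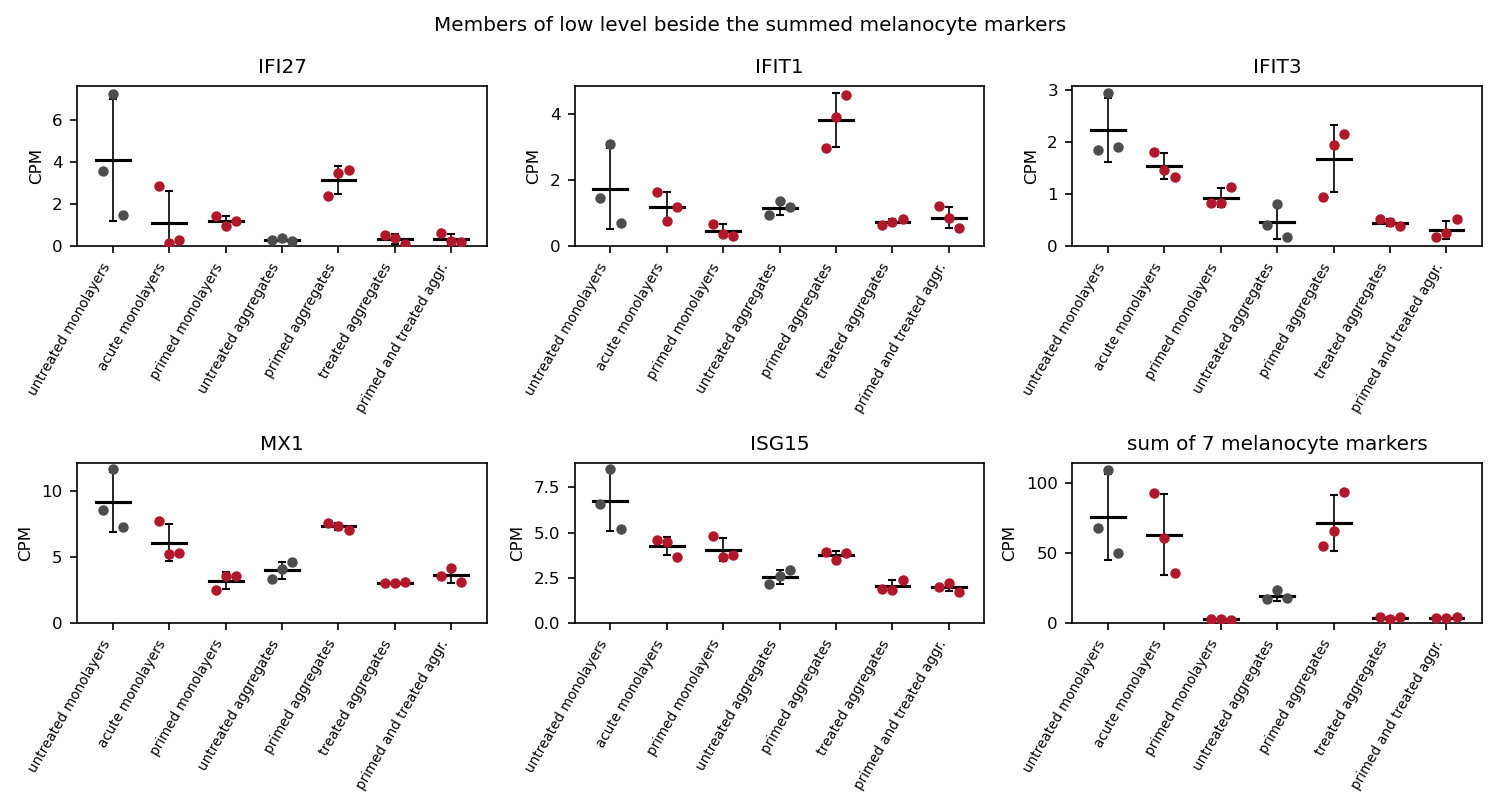
Levels in CPM (each vertical axis from 0) of IFI27, IFIT1, IFIT3, MX1 and ISG15 and the summed CPM of 7 melanocyte markers in the 7 groups; points are libraries, grey without and red with trastuzumab, and bars give the mean and SD of 3 libraries. The marker sum is 16.7 to 23.3 CPM in untreated and 54.5 to 93.2 in primed aggregates, the groups between which IFI27, IFIT1 and IFIT3 also differ.

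In treated aggregates OAS1, IFITM1, OAS3, HERC6, IFITM2, IFITM3, TRIM25, IRF9, STAT2 and SP100 were higher and HERC5 and USP18 lower than in untreated ones. These 12 of 42 (28.6%) lie below the 36.7% of all genes called (18.8% higher and 17.9% lower), and the median was 0.11 against 0.00. The SP100 call, 0.22 with an edgeR adjusted p of 0.0312, was lost without replicate 1 of the untreated aggregates (0.11, adjusted p = 0.311), replicate 1 or 3 of the treated ones (adjusted p = 0.0889 and 0.147) and the 6 libraries that carry MYH7 (adjusted p = 0.241), and that of IRF9 without replicate 2 of the treated aggregates (0.23, adjusted p = 0.0514). In primed and treated aggregates, 17 rose and 2 fell against untreated aggregates, beside 35.5% of all genes called (17.6% higher and 17.9% lower), with a median of 0.14 against 0.00. IFITM1, OAS1, IFITM2, IFITM3, HERC6, SP100, IRF1 and SAMD9 led the 17, and USP18 and ISG20 were the 2 lower genes. The call of DTX3L, 0.17 with an edgeR adjusted p of 0.0391, was lost on leaving out any of the 6 libraries. Both comparisons share the untreated aggregates. Kidney markers summed to 0.562 to 1.55 CPM in untreated aggregates and reached 9.67 to 31.7 after the dose alone and 10.4 to 43.9 after both exposures, and their part was not tested.

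Between the aggregates that had the second dose, those that had also been primed differed in few of these genes. Primed and treated against treated aggregates had SAMD9, PARP14, SP100, IRF1 and USP18 higher and OAS3 lower, 6 of 42 (14.3%) against 7.98% of all genes (3.18% higher and 4.8% lower), with a median of 0.11 against 0.00. SAMD9 was at 7.67, 9.12 and 8.21 CPM against 5.63, 5.36 and 4.65, higher by 0.68 without overlap (SE 0.14, edgeR adjusted p = 0.000957). Both groups belong to the 9 libraries. Without replicate 2 of the primed and treated aggregates 2 genes were called, and without replicate 3 of the treated aggregates 3.

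Primed and treated aggregates differed from primed ones in both directions. Against primed aggregates 11 genes were higher, led by IFITM1, IFITM2 and IFITM3 at 0.80, 0.63 and 0.63. The 9 lower genes included IFI27 at -3.18, IFIT3 at -2.36, IFIT1 at -2.16, MX1 at -1.03 and ISG15 at -0.94. Without replicate 3 of the primed and treated aggregates IFI27 was at -2.85 (edgeR adjusted p = 0.0506). These 20 of 42 (47.6%) compare with 29.8% of all genes called (14.9% higher and 14.8% lower), with a median of 0.00 in each. Every one of the IFITM family and BST2 was higher, 4 of 4. The melanocyte marker sum was 54.5 to 93.2 CPM in primed and 3.41 to 4.2 in primed and treated aggregates, and its part in the falls was not tested.

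Primed and treated aggregates against primed monolayers had 14 genes higher and 14 lower, 28 of 42 against 63.9% of all genes (31.9% higher and 32.1% lower), with a median of 0.04 against 0.02. IFITM1, IFI6, OAS2, OAS1, IRF9, STING1 and SP100 were higher by 2.04 to 1.01, and XAF1, OAS3, IFIT3, IRF1 and ISG15 lower by -2.04 to -1.05. Here both groups are among the 9 libraries, but culture form, the second dose and time differ together and cannot be told apart.

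**Figure D4:**
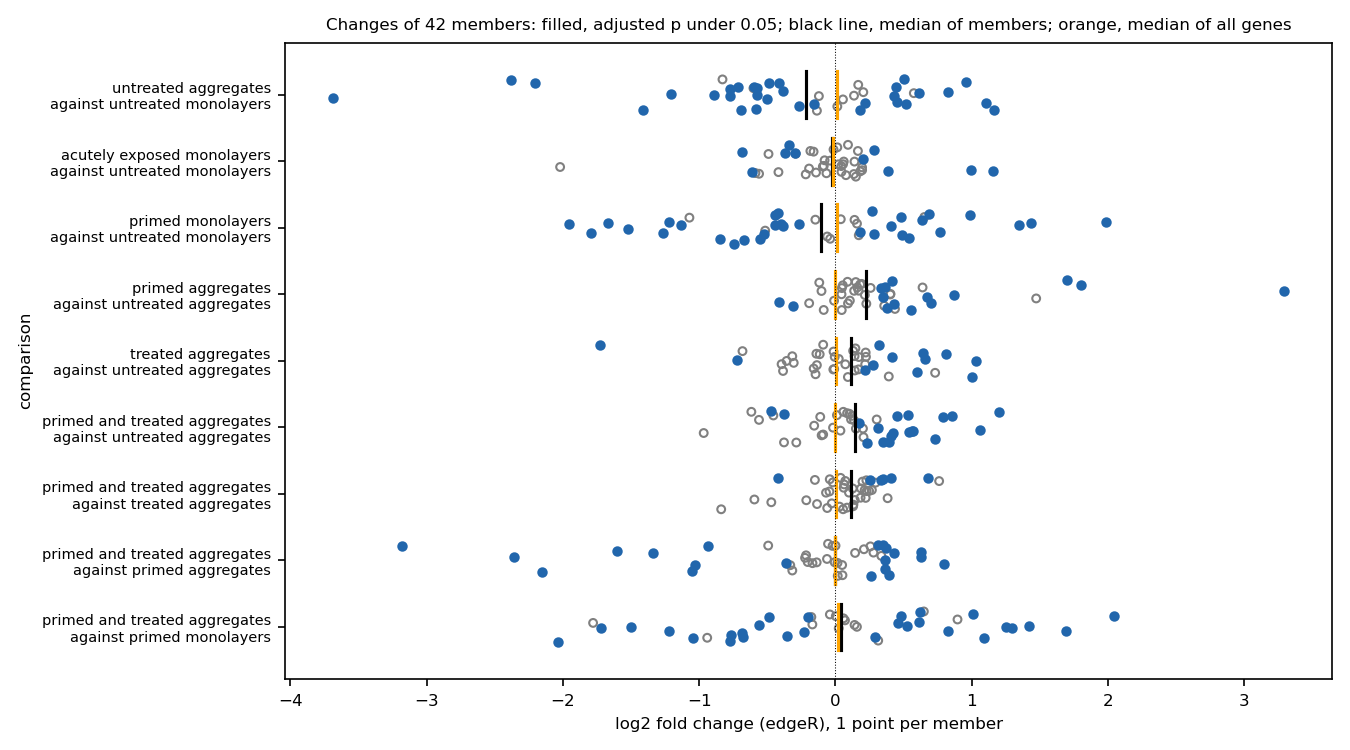
Log2 fold change from edgeR (horizontal axis) of the 42 genes in the 9 comparisons of groups (rows); filled points have an adjusted p under 0.05, the black line is the median of the 42 and the orange line the median of all genes tested. Medians of the 42 run from -0.21 in untreated aggregates against untreated monolayers to 0.22 in primed against untreated aggregates.

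Whether a response depended on what came before was tested as a difference of differences. The response to the second dose after priming was compared with the response to the dose without priming, and 5 of 42 genes differed, 1 higher and 4 lower, against 12.5% of all genes (5.05% higher and 7.42% lower). OAS1 rose by 0.36 with the dose after priming (SE 0.06, edgeR adjusted p = 5.42e-05) and by 1.03 without it, a difference of -0.67. OAS3 moved by 0.01 after priming and by 0.81 without, a difference of -0.80. STAT2 moved by -0.02 and 0.27, and IFIT3 by -2.36 and -0.09. Both responses cross from the 12 libraries to the 9. IFIT3 and the melanocyte sum were both highest in the primed aggregates, where the sum was 54.5 to 93.2 CPM, against 16.7 to 23.3 in untreated aggregates and 4.2 or less after the dose, and its part in the difference was not tested. USP18 moved by -0.05 after priming and by -0.72 without, a difference of 0.67. OAS1 reached overlapping levels after the dose, 68.7 to 70.2 CPM with priming and 66 to 71 without, from 50.2 to 61 and 32.9 to 33.7 in the groups that had no dose as aggregates.

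The response to priming in aggregates was also compared with the acute response in monolayers, and 11 of 42 genes differed, 8 higher and 3 lower, against 15.1% of all genes (6.85% higher and 8.25% lower). Culture form and time since exposure differ between the 2 responses. The responses of IFI27, IFIT3, IFIT1, MX1, ISG15, SAMD9, DHX58 and IFIH1 were higher in aggregates, and those of IRF1, OAS1 and USP18 lower. All of them called as higher with a promoter on file, 7 of 7, held the ISRE core, against 0 of 2 called lower, and 13 of 24 not called. The 2 are IRF1 and OAS1, and the OAS1 window held GAAA repeats at another spacing, which the search did not count. Leaving out the 6 libraries that carry MYH7 leaves 1 library in each of 3 of the 4 groups. Then 0 of these differences were called by edgeR and 6 of the 42 genes had an unadjusted p under 0.05. Several differences stayed about as large, at 0.65 for DHX58, 0.47 for IFIH1, -0.40 for OAS1 and -0.32 for USP18. IFIT1 was at 0.44, MX1 at 0.59 and ISG15 at 0.53. IFIT3 was at 3.26, but only replicate 3 of the untreated aggregates was left, where IFIT3 was at 0.178 CPM. IFI27, SAMD9 and IRF1 in this fit are not reported here. With the melanocyte level as a covariate the counts of called differences and of genes with an unadjusted p under 0.05 were 0 and 5. IFI27 was then at 1.39, IFIT3 at 0.94, IFIT1 at 0.16, MX1 at 0.64 and ISG15 at 0.43. About as large as without the covariate, or larger, were SAMD9 at 0.83 (SE 0.30), DHX58 at 0.63 (SE 0.26) and IFIH1 at 0.45 (SE 0.21). The same held for IRF1 at -0.72 (SE 0.25), OAS1 at -0.39 (SE 0.18) and USP18 at -0.33 (SE 0.20). DESeq2 on all libraries called 12. The call of SAMD9 was lost on leaving out any of 4 libraries (edgeR adjusted p up to 0.0744), and that of DHX58 without replicate 2 of the untreated or the primed aggregates (0.0669 and 0.0546).

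Across the comparisons the ISRE core was found in promoters of both higher and lower genes. In most comparisons of groups its share was larger among the lower ones, some of which were a single gene. In acutely exposed monolayers it was in 5 of 5 promoters of lower genes and 2 of 5 of higher ones, and in primed monolayers in 13 of 17 lower and 4 of 11 higher. In untreated aggregates against untreated monolayers it was in 11 of 18 lower and 4 of 7 higher. Against untreated aggregates it was in 1 of 1 lower and 6 of 11 higher genes in primed aggregates. The counts were 1 of 1 and 3 of 9 in treated aggregates, and 1 of 1 and 6 of 14 in primed and treated ones. For primed and treated aggregates it was in 8 of 9 lower and 4 of 9 higher genes against primed aggregates. The counts were 1 of 1 and 2 of 4 against treated aggregates, and 5 of 12 and 5 of 10 against primed monolayers. These are counts over few promoters, given as a description.

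Of 68 other genes of the pathway, 49 were tested. The 10 interferon genes listed, RSAD2 and CXCL9 were not analysed here. Against untreated monolayers, 13 of the 49 rose and 2 fell in acutely exposed monolayers (20.2% of all genes called), 27 rose and 12 fell in primed monolayers (65.3%), and 13 rose and 22 fell in untreated aggregates (64.1%). Against untreated aggregates 9 rose and 3 fell in primed (21.2%), 11 and 5 in treated (36.7%), and 16 and 2 in primed and treated aggregates (35.5%). IFNAR2, the signalling chain of the type I receptor, was at 23.3, 24.2 and 21.5 CPM in untreated monolayers, at 28.5, 30.4 and 29.7 after acute exposure, at 44.9, 47.2 and 48.2 in primed monolayers and at 46.1, 42 and 42.1 in untreated aggregates. It rose in all 3, by 0.36, 1.02 and 0.91 (SE 0.07 each, edgeR adjusted p = 0.000196, 5.09e-15 and 7.31e-14). Its partner IFNAR1 fell by 0.33 in primed monolayers (SE 0.05, edgeR adjusted p = 1.42e-06). JAK1, a kinase of the receptor, rose by 0.30 with acute exposure (SE 0.05, edgeR adjusted p = 8.81e-06).

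Of 9 adaptors and kinases of nucleic acid sensing, 6 rose and 3 fell in primed monolayers against untreated ones, beside 65.3% of all genes called. IKBKE, a kinase that phosphorylates IRF3 and IRF7, was at 7.58, 8 and 9.34 CPM in untreated monolayers, at 12, 10.8 and 10.8 after acute exposure and at 53.2, 49 and 50.3 in primed monolayers, a rise of 2.61 for the last (SE 0.10, edgeR adjusted p = 1.41e-21). TRAF3, an adaptor of that kinase, rose by 1.21 (SE 0.06, edgeR adjusted p = 8.65e-18), and SOCS1, an inhibitor of JAK kinases, by 2.98 (SE 0.31, edgeR adjusted p = 2.92e-10). The chemokine CXCL10 was at 3.42, 2.17 and 2.4 CPM there and at 0, 0 and 0.0924 in untreated monolayers. SAMHD1, which degrades nucleotides, was at 50.2, 48 and 44.6 CPM in untreated monolayers and at 10.9, 11.6 and 14.8 in untreated aggregates, a fall of 1.93 without overlap (difference -1.93, SE 0.10, edgeR adjusted p = 4.67e-18).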

How the data were processed

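Per the labels, total RNA was extracted with TRIzol and libraries were made with TruSeq. The authors deposited raw counts per gene. Per the submitters' processing notes the tools were featureCounts and limma and the build was hg38; the aligner, versions and strand setting are not given in the sources used here. Columns were matched to samples by title, except that the primed aggregates' column names say primed where the titles do not, so these were matched by elimination. The members and lists were chosen with earlier results of these data known.

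Counts were analysed with edgeR 4.0.16 (R 4.3.3): TMM scaling (factors 0.973 to 1.04), a filter by group that removed 584 genes with 0.0116% of counts, 1 mean per group, robust quasi-likelihood fit with 14 residual degrees of freedom, 2-sided tests and Benjamini-Hochberg adjustment over 15969 genes. CPM are counts over scaled library size. The steps were tested on simulated data. Replicate pairs differed by 2.48 to 11.5 times counting variance (chi-squared per degree of freedom), so none was counted as a repeat deposit of the same library.

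The text names, per comparison, the called genes with the largest changes (up to 8 each way, mean of at least 1 CPM in 1 group, groups not overlapping) and follows 16 fixed genes. From other pathway lists it takes receptors, JAK1, TYK2 and the 2 genes with the smallest p; some results are not reported here. CD68 and the others listed as markers come from fixed lists. Genes named outside the rule were chosen after their values were seen. Promoters and positions are RefSeq, GRCh38.p14; the build of that table need not be the annotation the authors used.

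Alternatives were DESeq2 1.42.0, RLE size factors, no filter, only the groups compared, only genes averaging 10 CPM, the replicate block and leaving out each library; 2 more were chosen after seeing the data (without the 6 libraries that carry MYH7, and the melanocyte level as a covariate). Same-numbered libraries of untreated aggregates and untreated monolayers deviated together (correlations 0.107, 0.189 and 0.258), which no label explains; with the replicate number as a block the comparison called 32 of the 42 genes, as without it.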

Additional observations from a re-analysis of the deposited data

Results flagged for a closer look

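The response to a dose of trastuzumab differed between primed and unprimed aggregates in 5 of the 42 genes (11.9%), against 12.5% of all genes. This was by the test of the difference itself (log2 scale, edgeR), and the share is near the background. The difference, after priming minus without, was -0.67 for OAS1 (SE 0.09, edgeR adjusted p = 4.18e-06), -0.80 for OAS3 (SE 0.15, edgeR adjusted p = 0.000284), -0.29 for STAT2 (SE 0.08, edgeR adjusted p = 0.00857), -2.27 for IFIT3 (SE 0.63, edgeR adjusted p = 0.0137) and 0.67 for USP18 (SE 0.11, edgeR adjusted p = 3.9e-05). Both responses cross from the 12 libraries to the 9, and the melanocyte sum, 54.5 to 93.2 CPM in primed and 16.7 to 23.3 in untreated aggregates, was 4.2 or less after the dose.

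The response to priming in aggregates differed from the acute response in monolayers in 11 of the 42 genes (26.2%), against 15.1% of all genes. It was higher in aggregates by 5.32 for IFI27 (SE 1.18, edgeR adjusted p = 0.00676), 2.36 for IFIT3 (SE 0.51, edgeR adjusted p = 0.00137), 2.29 for IFIT1 (SE 0.52, edgeR adjusted p = 0.00243), 1.48 for MX1 (SE 0.25, edgeR adjusted p = 6.78e-05), 1.24 for ISG15 (SE 0.27, edgeR adjusted p = 0.00138), 0.63 for SAMD9 (SE 0.18, edgeR adjusted p = 0.0163), 0.51 for DHX58 (SE 0.15, edgeR adjusted p = 0.0158) and 0.48 for IFIH1 (SE 0.12, edgeR adjusted p = 0.00654). The difference was -0.64 for IRF1, -0.45 for OAS1 and -0.38 for USP18 (SE 0.15, 0.10 and 0.11, edgeR adjusted p = 0.00404, 0.00135 and 0.0135). With the melanocyte level as a covariate 0 of the 11 were called by edgeR. IFI27 was then at 1.39, IFIT3 at 0.94, IFIT1 at 0.16, MX1 at 0.64 and ISG15 at 0.43. About as large as without the covariate, or larger, were SAMD9 at 0.83 (SE 0.30), DHX58 at 0.63 (SE 0.26) and IFIH1 at 0.45 (SE 0.21). The same held for IRF1 at -0.72 (SE 0.25), OAS1 at -0.39 (SE 0.18) and USP18 at -0.33 (SE 0.20). Without the 6 libraries that carry MYH7, which leaves 1 library in each of 3 groups, DHX58 was at 0.65 and IFIH1 at 0.47. IFIT3 was at 3.26, but only replicate 3 of the untreated aggregates was left, where IFIT3 was at 0.178 CPM. Over the 42 genes, 5 and 6 had an unadjusted p under 0.05 in those fits, and DESeq2 on all libraries called 12.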

How the results depend on the processing

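With DESeq2, RLE size factors or no filter, the count of called genes was within 1.5 times in all 11 comparisons, and no called gene changed sign. With only genes averaging 10 CPM or more, which leaves 24 of the 42, the counts were 21 for untreated aggregates and for primed monolayers (each against untreated monolayers), 9 for primed against untreated aggregates, 10 for primed and treated against primed aggregates and 7 for priming in aggregates against acute exposure. Fitting only the groups compared gave 9 for the dose after priming against the dose without. Without the 6 libraries that carry MYH7 the counts were 2 for acute exposure, 9 for primed against untreated aggregates and 0 for priming in aggregates against acute exposure, and MX1 turned to 0.085 with acute exposure. With the melanocyte level as a covariate they were 16 for untreated aggregates against monolayers, 1 for primed against untreated aggregates and 0 for priming in aggregates against acute exposure; IFI27 turned to 0.22 in the first and -0.13 in the second, and ISG15 to -0.10 in the second. The cause was not tested.

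The replicate block gave 9 for acute exposure, 32 for primed monolayers, 13 for primed, 12 for treated and 19 for primed and treated against untreated aggregates, 6, 18 and 28 for primed and treated aggregates against treated aggregates, primed aggregates and primed monolayers, and 6 and 11 for the differences between responses. In those comparisons of groups the correlations of same-numbered libraries ran from -0.276 to 0.286. For primed and treated aggregates against primed monolayers all were positive, at 0.275, 0.016 and 0.19. In the others the same-numbered libraries did not all deviate together. No label says whether libraries with the same number belong together. Leaving out each replicate in turn gave 30 to 32 for untreated aggregates against monolayers, 7 to 13 for acute exposure, 29 to 31 for primed monolayers, 9 to 14, 10 to 13 and 16 to 18 for primed, treated, and primed and treated against untreated aggregates, 2 to 8, 14 to 19 and 25 to 29 for primed and treated aggregates against treated aggregates, primed aggregates and primed monolayers, 5 to 8 for the dose after priming against the dose without (8 without replicate 1 of the untreated aggregates) and 9 to 13 for priming against acute exposure. Depth limits IFI27, IFI44, HERC5, MX2, IRF7, XAF1, IFIT1 and IFIT3 among others, which had under 10 CPM in every library.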
